A study of Mus musculus with 13 samples.

Results

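The genes examined were the 5 steroid hormone receptors *Nr3c1*, *Nr3c2*, *Pgr*, *Esr1* and *Esr2* and the 2 enzymes that interconvert active and inactive glucocorticoid, *Hsd11b1* and *Hsd11b2*. They were taken by name and make up 7 of the 55335 genes in the count table. Of the 7, 3 (*Nr3c1*, *Nr3c2* and *Esr1*) had enough counts for the test across all genes, 3 (*Pgr*, *Esr2* and *Hsd11b2*) had counts but did not pass that filter, and *Hsd11b1* had no counts. RNA was measured by 3′ Tag-Seq, in which 1 short read is made near the 3′ end of each captured transcript, in 13 libraries of germ cells sorted at E17.5 for the *Pou5f1*-GFP transgene (labelled OCT4-GFP), 1 library for the ovaries of each female embryo. The question put to the data was whether the level of another steroid receptor or of a converting enzyme differed where the glucocorticoid receptor (GR) gene was deleted.

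The 13 embryos came from 2 crosses. In the constitutive cross, 3 wild type (WT) embryos were set against 3 knockout (KO) embryos homozygous for a deletion in *Nr3c1*. The deletion had been made by crossing floxed mice (line listed as *Nr3c1*tm1.1Jda) to a β-actin Cre line. In the conditional cross, all embryos were homozygous for the floxed allele. In it 3 embryos without Cre (flox) were set against 4 embryos that also carried *Pou5f1*-CreERT2 (cKO). CreERT2 is a Cre fused to a mutated estrogen receptor ligand-binding domain, here expressed under *Pou5f1* control. All dams of the conditional cross, those of flox embryos included, received tamoxifen (125 μg/g) at E10.5, and those of the constitutive cross did not, so that cross, tamoxifen and strain background cannot be told apart. Tamoxifen is itself an estrogen receptor ligand. Whether reads of the Cre fusion were counted on *Esr1* was not tested, and which embryos shared a litter is not given in the sources used here.

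Steroid receptors are transcription factors that bind a lipid-soluble hormone and then bind DNA through 2 zinc fingers. GR, the mineralocorticoid receptor (MR, gene *Nr3c2*) and the progesterone receptor (*Pgr*) share one class of DNA element, and the estrogen receptors bind another. MR also binds corticosterone, the main glucocorticoid of the mouse, with high affinity. Whether MR meets that hormone in a cell depends on HSD11B2, which inactivates corticosterone, and on HSD11B1, which regenerates it.

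The kinship of the receptors was visible in their coding sequence. Over a window of 56 codons that covers the zinc fingers, 54 codons of *Nr3c2* encoded the same residue as *Nr3c1* (96.4%), against 52 in *Pgr* (92.9%), 33 in *Esr2* (58.9%) and 32 in *Esr1* (57.1%). The start of the recognition helix, which makes the contacts with DNA, is shown for *Nr3c2*, *Pgr*, *Esr1* and *Esr2* because it divides them into those that could read a GR element and those that read an estrogen element. Each run holds 10 codons from the third zinc-binding cysteine of the fingers, read 5′ to 3′ on the coding strand from the GENCODE M21 transcripts (mm10), with the 3 codons that set DNA recognition in capitals.
Nr3c2: tgcGGCAGCtgcaaaGTCttcttcaaaaga
Pgr: tgtGGGAGCtgcaagGTCttctttaagagg
Esr1: tgcGAAGGCtgcaagGCTttctttaagaga
Esr2: tgtGAAGGAtgtaagGCCttttttaaaaga
They lie in coding exons at chr8:77085627-77085656 (plus strand, exon 3 of the transcript read) for *Nr3c2*, chr9:8903708-8903737 (plus, exon 2) for *Pgr*, chr10:4746768-4746797 (plus, exon 4) for *Esr1* and chr12:76165459-76165488 (minus, exon 3) for *Esr2*.

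The libraries held 2048706 to 3674989 counts (median 2483236), so that 1 count stood for 0.272 to 0.486 counts-per-million (CPM). Low counts were uneven: of 2405 genes with a mean of 20 to 50 counts, 1205 (50.1%) had at least 1 library at 0. All 10 oocyte markers had counts, and their summed level was 12931 to 21849 CPM. The 14 ovary somatic markers, all with counts, summed to 134 to 405 CPM, with WT at 134 to 209, KO at 147 to 171, flox at 150 to 364 and cKO at 220 to 405. Of 9 endothelial and blood markers 8 had counts (*Hbb-y* was at 0), and their sum ran from 7.25 CPM in a KO library to 1298 CPM in flox replicate 1. Of 7 steroidogenic markers 4 had counts, at 9.15 to 41.6 CPM in sum, and *Cyp11a1*, *Cyp21a1* and *Cyp11b1* were at 0. The part of these cells in the values below was not tested, and in sorted pools a smaller share of cells with a transcript and less of it per cell cannot be told apart.

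*Nr3c1*, which encodes GR (ENSMUSG00000024431.15, mm10 chr18:39410545-39519421, minus strand), was the highest of the 7 genes in 12 of 13 libraries. The WT libraries held 46.0, 29.1 and 58.7 CPM, and the KO libraries 34.2, 26.3 and 73.4 CPM. The flox libraries held 46.5, 46.7 and 104 CPM, and the cKO libraries 59.2, 48.4, 30.1 and 72.8 CPM. Both pairs of groups overlapped, and the deletion did not show as a lower count of the gene. Group means ± SD were 44.6 ± 14.8 in WT (n = 3), 44.6 ± 25.3 in KO (n = 3), 65.8 ± 33.3 in flox (n = 3) and 52.6 ± 18.0 in cKO (n = 4). The log2 fold change was −0.0025 (SE 0.53, 95% interval −1.11 to 1.10, adjusted p = 1, edgeR quasi-likelihood test) for KO against WT and −0.32 (SE 0.50, interval −1.35 to 0.71, adjusted p = 0.9998) for cKO against flox. The deleted exon 3 is 164 bases long, 2.55% of a transcript of 9 exons, while reads were counted over the whole gene. A 3′ tag does not show whether its transcript carried that exon. Whether this accounts for the similar counts was not tested. In a 3′ single-cell assay of an earlier stage, the authors reported total *Nr3c1* transcript depleted in KO cells of every ovarian cell type. At E17.5 they reported complete loss of GR protein by antibody staining of KO ovaries, and they genotyped each embryo from a tail clip. Here the *Nr3c1* count did not set deleted libraries apart from controls, and the genotypes were taken from the labels as given.

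*Nr3c2*, which encodes MR, is the receptor nearest to GR in sequence (ENSMUSG00000031618.13, chr8:76899442-77245012, plus strand). It had no count in WT replicates 1 and 2 and 18.5 CPM in WT replicate 3, while the KO libraries held 27.4, 16.5 and 11.4 CPM. The flox libraries held 4.65, 11.6 and 22.3 CPM and the cKO libraries 2.42, 5.86, 19.1 and 8.97 CPM. The 1 WT library with counts lay within the KO range, and flox and cKO overlapped. Means were 6.16 ± 10.7 CPM in WT, 18.4 ± 8.14 in KO, 12.8 ± 8.90 in flox and 9.09 ± 7.19 in cKO (SD).

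The log2 fold change of *Nr3c2* was 1.55 for KO against WT (SE 1.46, 95% interval −1.47 to 4.57, adjusted p = 0.998, edgeR), and the exact permutation test over the 6 embryos gave p = 0.3 (two-sided), where 0.1 is the smallest p that 3 against 3 allows. In cKO against flox it was −0.49 (SE 1.33, interval −3.25 to 2.26, adjusted p = 0.9998, exact permutation p = 0.543, smallest possible 0.0286). The upper ends of these intervals are 23.7-fold in KO and 4.79-fold in cKO, so differences up to those sizes lay within the error of the fit. Averaged over both crosses the log2 fold change was 0.53 (SE 0.99, exact permutation p = 0.3), and the cKO effect minus the KO effect was −2.05 (SE 1.97, unadjusted p = 0.309). WT replicate 3 decided the KO value: without it the fit gave 8.49 against WT libraries both at 0, a number that depends on the prior count, with an adjusted p of 0.579. Without WT replicate 1 the log2 fold change was 0.98. Of genes with a mean of 20 to 50 counts 50.1% had a library at 0, *Nr3c2* (mean 29.5 counts) among them, and WT replicate 3 was also the deepest library.

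**Figure D1:**
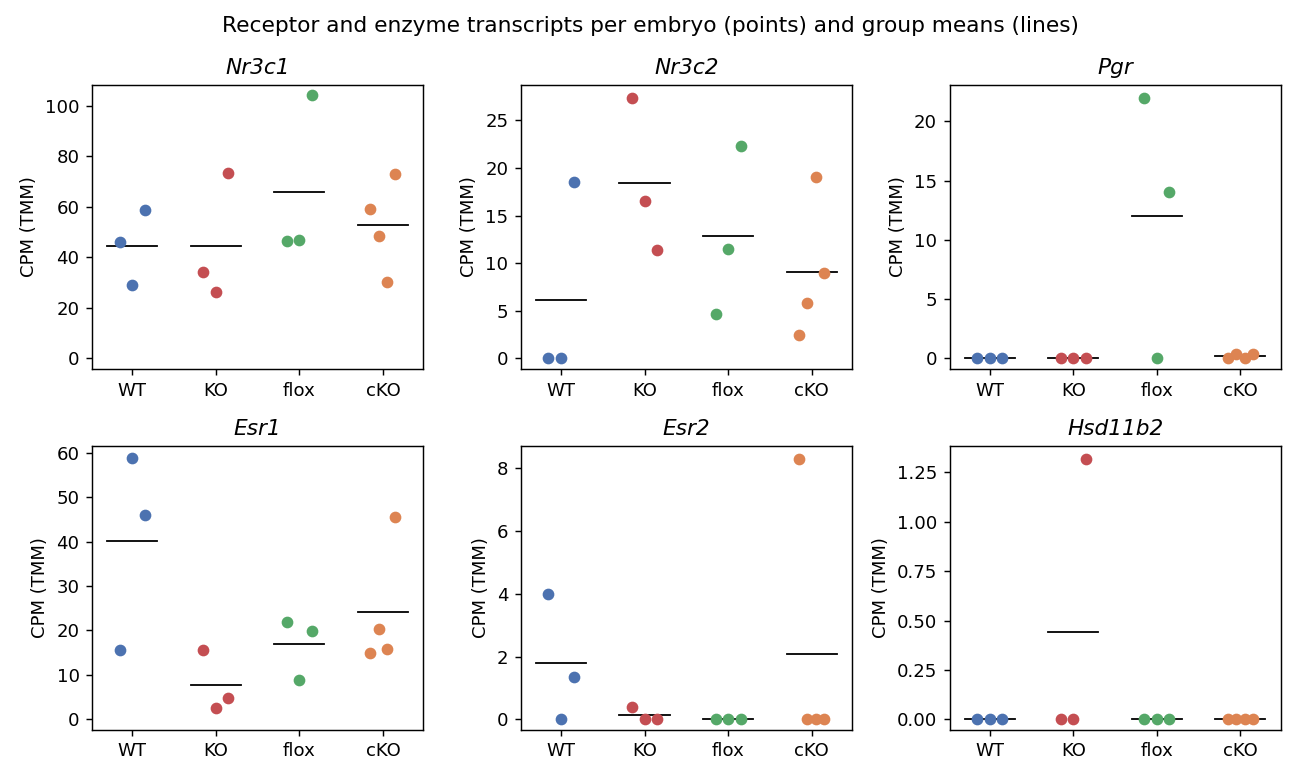
Level in each embryo (points, CPM on the vertical axis, linear, 1 panel per gene) by group, with group means as lines. *Nr3c1* had counts in all 13 libraries, whereas *Nr3c2* was at 0 in WT replicates 1 and 2 and *Pgr* had more than 1 count only in flox replicates 1 and 3.

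*Pgr*, the progesterone receptor (ENSMUSG00000031870.16, chr9:8899833-8968611, plus strand), had 83 counts in all, in 4 libraries. Flox replicates 1 and 3 held 52 and 29 of them (22.0 and 14.1 CPM), flox replicate 2 held none, and the cKO libraries held 0, 1, 0 and 1 count. All 6 libraries of the constitutive cross, WT and KO, were at 0, which allows up to 0.816 to 1.46 CPM per library (3 counts, counting error only). The flox mean was 12.0 ± 11.1 CPM and the cKO mean 0.184 ± 0.213 CPM, and the flox library at 0 lay within the cKO values (exact permutation p = 0.143 for cKO against flox). Flox replicate 1, the highest for *Pgr*, was also the library with the highest sum of endothelial and blood markers, whose part in the *Pgr* count was not tested.

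*Esr1*, which encodes estrogen receptor α (ENSMUSG00000019768.16, chr10:4611593-5005614, plus strand), had counts in all 13 libraries. The WT libraries held 15.5, 58.8 and 46.0 CPM and the KO libraries 15.6, 2.43 and 4.84 CPM. The flox libraries held 22.0, 8.89 and 19.9 CPM and the cKO libraries 14.9, 20.3, 15.8 and 45.6 CPM. The lowest WT value (replicate 1) lay just below the highest KO value (replicate 1), so WT and KO overlapped by that pair, and flox and cKO overlapped widely. Means were 40.1 ± 22.2 CPM in WT, 7.62 ± 7.0 in KO, 16.9 ± 7.03 in flox and 24.1 ± 14.5 in cKO (SD).

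For KO against WT the log2 fold change of *Esr1* was −2.38 (SE 0.89, 95% interval −4.22 to −0.53), with an unadjusted p of 0.0137 that did not pass the adjustment over all genes (adjusted p = 0.847, edgeR). The exact permutation test gave p = 0.2. For cKO against flox the value was 0.51 (SE 0.80, interval −1.14 to 2.17, adjusted p = 0.9998, exact permutation p = 0.514). The cKO effect minus the KO effect was 2.89 (SE 1.20, interval 0.42 to 5.37, unadjusted p = 0.024, adjusted p = 0.9999), and the average of both effects was −0.93 (SE 0.58, exact permutation p = 0.2). When 1 library at a time was removed, the KO value ran from −3.43 to −1.95, and its unadjusted p from 0.00359 to 0.0638.

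**Figure D2:**
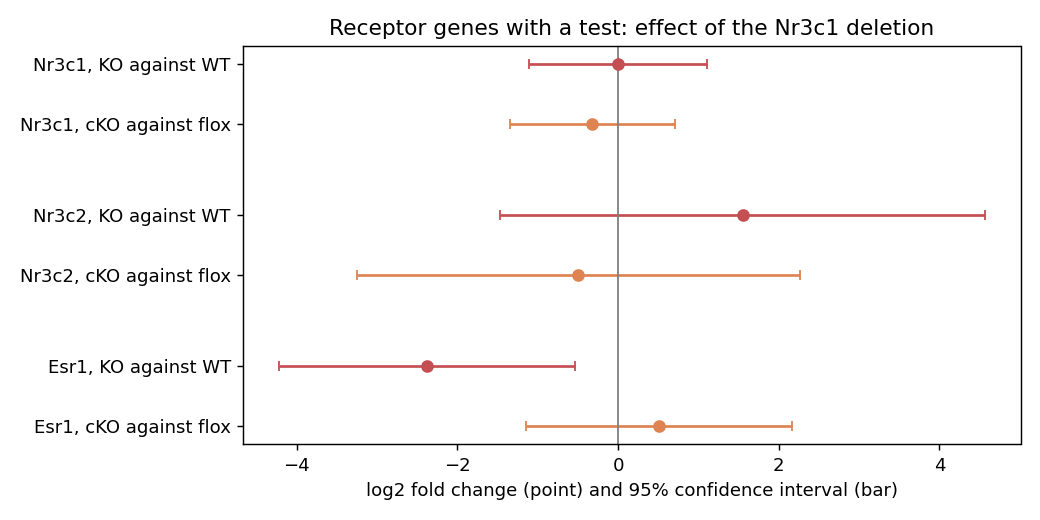
Log2 fold change (points, horizontal axis) with 95% interval (lines) from edgeR for *Nr3c1*, *Nr3c2* and *Esr1* in KO against WT and in cKO against flox. Only the *Esr1* interval in KO against WT (−4.22 to −0.53) does not cross 0, and its adjusted p was 0.847.

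*Esr2*, which encodes estrogen receptor β (ENSMUSG00000021055.14, chr12:76120419-76177259, minus strand), had 39 counts in 4 libraries. WT replicates 1 and 3 held 9 and 5 counts (3.98 and 1.36 CPM), KO replicate 1 held 1, and cKO replicate 1 held 24 (8.31 CPM). The other 9 libraries, all flox libraries among them, were at 0. Neither comparison separated the groups (KO against WT, exact permutation p = 0.4; cKO against flox, p = 1).

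Of the converting enzymes only *Hsd11b2* could be read, and it was near 0. *Hsd11b2* (ENSMUSG00000031891.6, chr8:105518755-105523988, plus strand), which inactivates corticosterone and overlaps no other gene, had 3 counts, all in KO replicate 3 (1.32 CPM). The other 12 libraries were at 0, and the 3 counts amount to 0.0912 CPM of the 32884451 counts of the series. *Hsd11b1* (ENSMUSG00000016194.14, chr1:193221634-193264075, minus strand), which regenerates corticosterone, was listed at 0 in every library. Its interval lies wholly within that of *Lamb3* on the opposite strand, and all 1199 protein-coding genes so covered by other genes were at 0 in this table. The 0 of *Hsd11b1* is therefore no measure of its transcript, and *Lamb3* itself had 6 counts.

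Over all 13 libraries the mean levels were, in CPM ± SD, 52.0 ± 22.0 for *Nr3c1*, 22.3 ± 17.1 for *Esr1* and 11.4 ± 8.81 for *Nr3c2*. Per kilobase of annotated exon the order was *Nr3c1* (6.76 CPM per kb), *Nr3c2* (1.77), *Esr1* (1.63), *Pgr* (0.331), *Esr2* (0.320) and *Hsd11b2* (0.0552). This scale is given for comparison between genes, although 3′ tags depend little on length and reads were counted over whole gene intervals, introns included. Exons make up 1.87% of the *Nr3c2* interval and 3.47% of the *Esr1* interval, and by CPM alone *Esr1* stood above *Nr3c2*. Among the 13086 genes tested, the mean CPM of *Nr3c1* stood at percentile 66.8, that of *Esr1* at 47.6 and that of *Nr3c2* at 34.4. By group mean, *Nr3c1* was highest in flox, then cKO, then KO and WT, *Nr3c2* in KO, flox, cKO and WT, and *Esr1* in WT, cKO, flox and KO. The ranges of neighbours in each of these orders overlapped.

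No member was called in any comparison. For KO against WT 0 of the 3 tested genes had an adjusted p of 0.05 or less, as did 0% of all 13086 genes, and 1 of 3 (*Esr1*) had an unadjusted p under 0.05, where 5.82% of all genes did. For cKO against flox 0 were called (0% of all genes) and 0 had an unadjusted p under 0.05 (3.19% of all genes). For the average of both effects 0 were called (0%) and 0 had an unadjusted p under 0.05 (5.34%). For the difference of the effects 0 were called (0%) and 1 of 3, *Esr1*, had an unadjusted p under 0.05 (4.39%). DESeq2 and limma voom also called none of the 3 genes in the comparisons they were run on. The groups of each cross overlapped in all 3 tested genes. Among all 13086 genes, 9.46% had KO and WT libraries fully apart, and 4.97% had cKO and flox libraries fully apart. With only 3 genes, overlap in all of them does not set them off from these shares. *Pgr*, *Esr2* and *Hsd11b2* did not pass the filter and are not part of that background. Libraries at 0 in both groups made their groups overlap in either cross.

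Between the crosses, 0 of the 3 genes were called and 0 had an unadjusted p under 0.05 (0.00764% of all genes called, 5.59% with an unadjusted p under 0.05, 0.16% with crosses that did not overlap). The log2 differences, conditional minus constitutive, were 0.40 (SE 0.37) for *Nr3c1*, 0.0046 (SE 0.84) for *Nr3c2* and 0.20 (SE 0.58) for *Esr1*. The exact permutation p for *Pgr*, seen with counts only in the conditional cross, was 0.168.

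**Figure D3:**
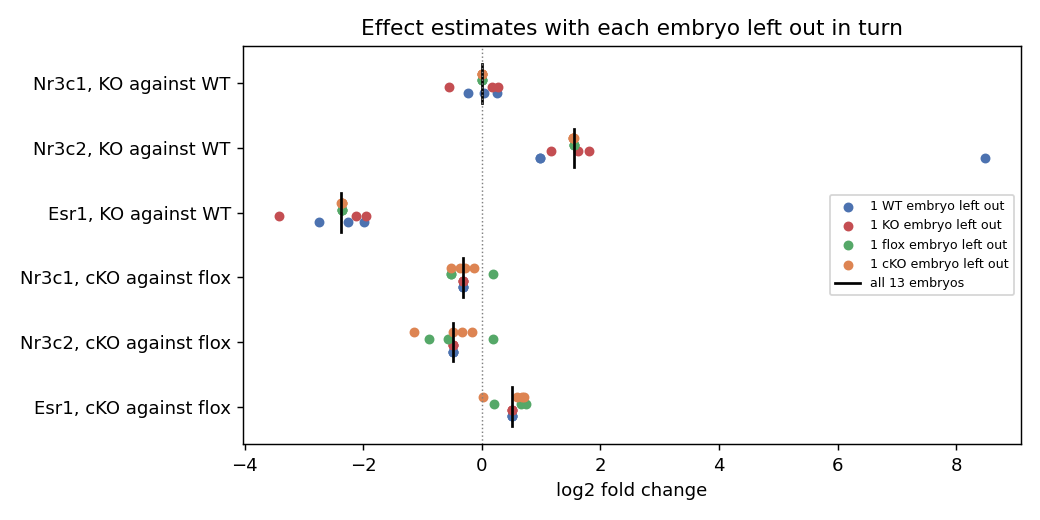
Log2 fold change (horizontal axis) of *Nr3c1*, *Nr3c2* and *Esr1* in KO against WT and in cKO against flox after removal of 1 library at a time (points, 13 per row). *Nr3c2* in KO against WT spreads from 0.98 to 8.49, the latter without WT replicate 3, while *Esr1* stays between −3.43 and −1.95.

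Across the 13 embryos, levels of *Nr3c1* and of the other tested receptors were compared in log2 CPM. The correlation of *Nr3c1* with *Nr3c2* was r = 0.174 (permutation p = 0.567, 0.569 adjusted over 2 relations) and rho = 0.0743 (permutation p = 0.809, adjusted 0.863). Without the 2 embryos farthest from the median of *Nr3c1* r was 0.159, and within the crosses it was 0.160 (constitutive, n = 6) and 0.0901 (conditional, n = 7). For *Nr3c1* with *Esr1*, r was 0.174 (permutation p = 0.569, adjusted 0.569), rho was 0.0549 (permutation p = 0.863), and r was −0.191 without the 2 farthest embryos, 0.0172 in the constitutive and 0.395 in the conditional cross. Neither relation passed its permutation test.

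The genes whose log2 CPM ran most like each tested member over the 13 libraries are given as a description. They were *Memo1* (r = 0.887), *Rab11fip1* (0.806) and *Bbs7* (0.797) for *Nr3c1*, *Letmd1* (0.874), *Wsb1* (0.855) and *Ywhaq* (0.835) for *Nr3c2*, and *Ap3s2* (0.895), *Wdfy1* (0.865) and *Psmc3* (0.811) for *Esr1*. All libraries share the sort and the assay, and the 3 highest of 8493 or more genes were chosen for each member.

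Of the genes around the receptors, 5 lists with 30 tested genes were counted, and none was called in any comparison by edgeR. An unadjusted p under 0.05 was found in 1 of 30 (3.33%) for KO against WT, beside 5.82% of all genes, and in 2 of 30 (6.67%) for cKO against flox, beside 3.19%. For the average of both effects it was found in 2 of 30 (5.34% of all genes), for their difference in 1 of 30 (4.39%) and between the crosses in 1 of 30 (5.59%). The 12 nuclear receptor coregulators, the cofactors through which ligand-bound receptors switch genes on or off, were all tested. Their median log2 fold change was −0.08 in KO against WT and −0.02 in cKO against flox, beside −0.03 and −0.01 over all genes. *Crebbp*, an acetyltransferase coactivator, stood at 503 ± 96.4 CPM over the 13 libraries and the corepressor *Ncor1* at 203 ± 68.6 CPM.

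*Nrip1*, a corepressor of ligand-bound receptors, was the 1 listed gene with an unadjusted p under 0.05 for KO against WT. The WT libraries held 50.9, 25.8 and 43.8 CPM and the KO libraries 62.7, 123 and 70.4 CPM, so every KO library was above every WT library, as in 9.46% of all genes in either direction. Its log2 fold change was 1.08 (SE 0.52, unadjusted p = 0.0488, adjusted p = 0.847). The cKO mean of 48.2 ± 27.3 CPM was below the flox mean of 68.5 ± 18.7 CPM, and the cKO effect minus the KO effect was −1.59 (SE 0.71, unadjusted p = 0.034).

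For cKO against flox the coactivator subunit *Med1* had a log2 fold change of 0.76 (SE 0.29, unadjusted p = 0.0149, adjusted p = 0.9998), with flox at 116 ± 17.9 CPM and cKO at 196 ± 36.8 CPM. WT stood at 219 ± 53.1 CPM and KO at 237 ± 26.4 CPM, so flox had the lowest mean of the groups. Between the crosses the log2 difference of *Med1* was −0.60 (SE 0.21, unadjusted p = 0.00825, adjusted p = 0.777, edgeR). The coactivator *Ncoa2* had −0.67 (SE 0.31, unadjusted p = 0.0445, adjusted p = 0.9998), with flox at 166 ± 40.2 CPM and cKO at 105 ± 31.8 CPM. The corresponding log2 fold changes for KO against WT were 0.11 (SE 0.30) for *Med1* and −0.08 (SE 0.34) for *Ncoa2*.

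**Figure D4:**
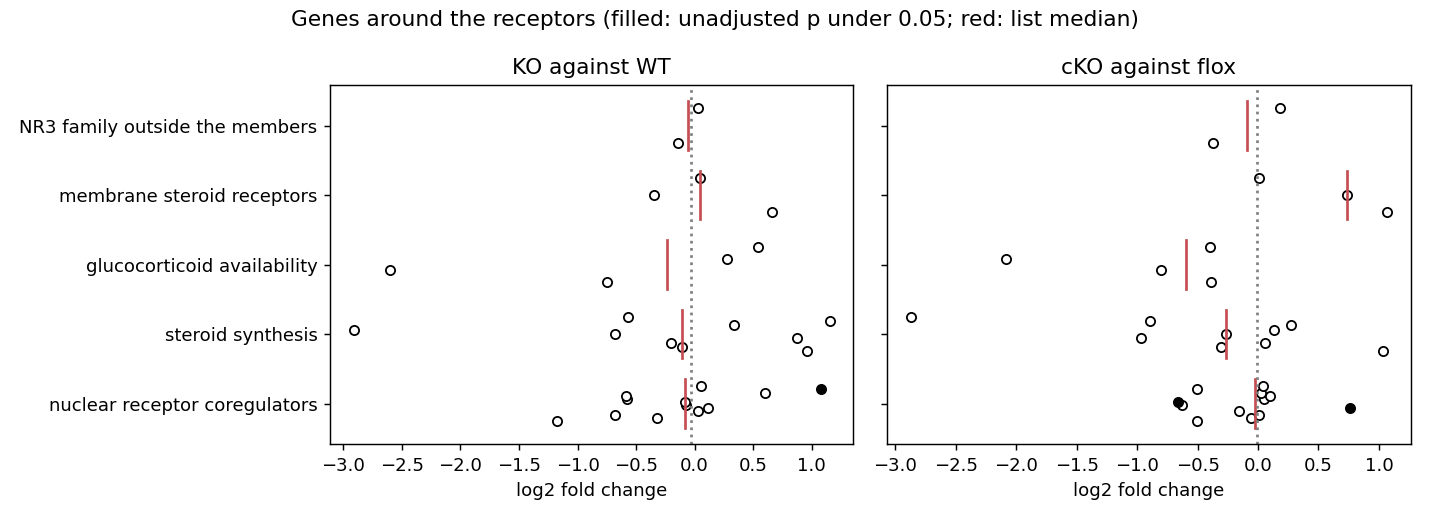
Log2 fold change (horizontal axis) of each tested gene of the 5 lists in KO against WT and in cKO against flox. Filled points had an unadjusted p under 0.05 (1 and 2 of 30 genes), red lines are list medians and the dotted line is the median of all genes.

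The 8 membrane steroid receptors, which carry rapid responses, had 7 members with counts and 3 tested, with medians of 0.04 in KO against WT and 0.74 in cKO against flox. *Pgrmc2*, a heme-binding progesterone receptor membrane component, was at 215 ± 62.8 CPM, with log2 fold changes of 0.04 (SE 0.36) and 0.01 (SE 0.34). Of the 8 genes of glucocorticoid availability 6 had counts and 4 were tested, with medians of −0.24 and −0.60. Among them *Abcb1a*, an efflux pump that carries steroids out of cells, was at 42.4 ± 18.6 CPM, with −0.75 (SE 0.58) and −0.39 (SE 0.54). The 19 steroid synthesis genes had 17 in the table, 13 with counts and 9 tested, with medians of −0.10 and −0.27. *Fdx1*, the electron donor of mitochondrial steroid hydroxylases, had log2 fold changes of 0.96 and 1.04 and an average of 1.00 over both crosses (SE 0.42, unadjusted p = 0.025, adjusted p = 0.887). The 3 estrogen-related receptors, orphan members of the family, had 2 tested, with medians of −0.06 and −0.09. The membrane receptor without counts and a gene of glucocorticoid availability at 0 were wholly covered by other genes. Their 0, like that of *Hsd11b1*, is no measure of their transcripts.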

How the data were processed

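Germ cells of 13 embryos were profiled. The authors trimmed 3′ Tag-Seq (QuantSeq) reads with cutadapt, aligned them to mm10 with STAR 2.6.0 and counted reads per gene with featureCounts 1.6.3; the deposited counts were used as they are. The length column equals each gene's full interval for all 55335 genes, so introns were included; the strand setting is not given in the sources used here. The authors' comparison tables hold fold changes and p-values and were not used. Names came from GENCODE M21 (54587 of 55335 genes matched).

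Counts were fitted in R 4.3.3 with edgeR 4.0.16 (quasi-likelihood F test, filterByExpr with a minimum count of 10 and a total of 15, TMM, all 13 libraries, 4 group means), Benjamini-Hochberg adjusted over 13086 genes. Genes were called at an adjusted p of 0.05 or less. Single genes were also tested by exact two-sided permutation of embryos on log2 CPM (prior count 2). CPM values are TMM-scaled, except marker sums. Libraries held 2048706 to 3674989 counts, and floors of 3 counts cover counting error only, while edgeR intervals include the spread between embryos. The edgeR SE is an approximation: the size of the log2 fold change divided by the square root of F. The interval adds and subtracts a t quantile times that SE. For *Nr3c2* this SE was 0.99 for the average and 0.84 between crosses, although both contrasts weight the groups equally. Alternatives were RLE scaling, DESeq2 1.42.0, limma 3.58.1 voom, no filter, at least 10 counts in every library, a replicate block, a fit of the 2 groups compared and each library left out. The fits were tested on simulated data with 11838 genes, in KO against WT alone. Of 100 genes given a 4-fold change 52% were called, and of 100 given an 8-fold change 86% were called. All of these genes were drawn from those with a mean of at least 50 counts. The shares therefore do not apply to *Nr3c2* (mean 29.5 counts) or to members without a test. Of the unchanged genes 7 were called. A gene that was not called may therefore still differ.

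Named genes were all 7 members, genes of 5 lists with a mean over 20 CPM or an unadjusted p under 0.05, and the 3 genes most like each tested member (Pearson r, genes with counts in every library). Cell type markers at 0 are named too. *Lamb3* was added after its values were seen, and 1 listed gene is not reported here. The members and lists were chosen with earlier results of these data known. The replicate numbers of the labels name separate embryos.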

Additional observations from a re-analysis of the deposited data

Results flagged for a closer look

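The level of *Esr2* in cKO replicate 1 stood apart from its group: it was 8.31 CPM, from 24 counts, while the other 3 cKO libraries were at 0. With 3 libraries tied at 0, the gap takes up the whole range for any count above 0, so Dixon's limit of 0.829 for 4 samples says nothing of chance here.

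The contrast of the *Esr1* effects between the crosses, the cKO effect minus the KO effect, was 2.89 on the log2 scale (SE 1.20, unadjusted p = 0.024, edgeR interaction contrast) and did not pass the adjustment over all genes (adjusted p = 0.9999). With 1 library left out at a time its unadjusted p was under 0.05 in 9 of 13 fits, and it was 0.0759 without WT replicate 2, 0.0727 without cKO replicate 4, 0.0593 without flox replicate 2 and 0.0549 without KO replicate 2. With the replicate block the contrast was 2.65 (unadjusted p = 0.0721).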

How the results depend on the processing

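Of 86 values of the 3 tested members under alternatives other than leaving out a library, 81 kept their direction and none was called. The 5 that changed sign lay near 0: *Nr3c1* in KO against WT was 0.0114 with RLE, 0.0112 with DESeq2 and 0.0237 with no filter, *Nr3c2* between crosses was −0.0156 with no filter, and *Esr1* between crosses was −0.0418 with the replicate block. The cause was not tested.

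The number of genes called was 10 (KO against WT), 5 (cKO against flox), 12 (average), 4 (difference) and 33 (between crosses) with DESeq2, and 15, 11, 17, 8 and 35 with no filter (22038 genes). With at least 10 counts in every library (6561 genes) it was 1 for the average and 0 between crosses, and *Nr3c2* and *Esr1* had no value. With each library left out in turn, 0 to 2 genes were called for KO against WT (2 without WT replicate 3), 0 to 1 for the average (1 without flox replicate 1) and 1 to 11 between crosses (11 without WT replicate 3).

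Leaving out 1 library turned the sign of some values. *Nr3c1* ran from −0.56 to 0.28 in KO against WT, −0.52 to 0.19 in cKO against flox, −0.44 to 0.10 for the average and −0.59 to 0.24 for the difference. *Nr3c2* ran from −1.14 to 0.18 in cKO against flox and −0.33 to 3.48 between crosses, the latter without WT replicate 3. *Esr1* between crosses ran from −0.0407 to 0.74.

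Deviations of 6 pairs with the same replicate number in their labels correlated at −0.02 to 0.06. This does not settle whether the numbers pair the samples, since shared litters are not known. The replicate block used the same label numbers. The column names of the deposited counts number WT, KO and flox replicate 3 otherwise. The highest values of flox with cKO, 0.064 and 0.040, were same-numbered pairs. By column name flox replicate 3 shares its number with cKO replicate 4. That pair was at 0.024, the highest value of flox replicate 3, against 0.001 with cKO replicate 3. A block by column number was not fitted. Same-numbered pairs of WT with KO lay at −0.023 to −0.0098. With the replicate block 0 genes were called within either cross, *Nr3c2* in KO against WT was 3.72 (unadjusted p = 0.0598), and limma voom gave 4.01 (unadjusted p = 0.0138, adjusted p = 0.880).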
